A study of Homo sapiens with 22 samples.

Results

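The regions described here are the H3K27ac regions of K562 cells that carried acetylation peaks before PMA acted and in no later library. A region of the deposited H3K27ac table on chromosomes 1 to 22 and X was a member when it overlapped, by at least 1 bp, a peak of both 0 h libraries and no peak of the 4 libraries taken at 6 and 72 h. There were 3075 members among 95436 regions in the table, of which 94896 lay on those chromosomes. They made up 11.1% of the 27693 regions with peaks in both 0 h libraries. K562 is a human erythroleukemia cell line, labelled here as wild type, and PMA is a phorbol ester that activates protein kinase C and drives the line from an erythroid-like toward a megakaryocyte-like state. Cells received 25 nM PMA for 0, 6 or 72 h, and the 0 h cells served as the untreated state. H3K27ac, Jun and CTCF were profiled at all of these times and Rad21 at 0 and 72 h by CUT&RUN, in which an antibody-guided nuclease releases the DNA beside its target, with 2 libraries in each of 11 groups. No label says that the paired libraries came from separate cultures, so p-values measure only the spread between these samples, which may be technical. In bulk chromatin, fewer cells with a mark and less of the mark per cell cannot be told apart.

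Acetylation of lysine 27 on histone H3 is deposited by the coactivators p300 and CBP and marks active promoters and enhancers, and it is removed by histone deacetylases. In red cell precursors, GATA1 and TAL1 bind enhancers together with LMO2 and LDB1, and KLF1 binds CACC motifs at globin, heme synthesis and membrane protein genes. Megakaryocytes share GATA1 with red cells but use ETS family factors and RUNX1. Jun is a subunit of AP-1, a factor induced by phorbol esters, Rad21 is a subunit of the cohesin ring that extrudes chromatin loops, and CTCF is the insulator protein at which many loops are anchored.

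A small group of members lay over gene starts, and the sequences there show which letters the acetylated windows contained. RefSeq promoter windows of GRCh38.p14 run from 250 bases before to 50 bases after a gene's start, and 166 distinct windows overlapped a member. The 250 bases before the start are printed 5′ to 3′ in the gene's direction for the 3 windows with the highest 0 h H3K27ac among those lying whole inside a member, and for LOC101927281, whose window had 2 members over it. Capitals mark the GATA core GATAA, the AP-1 site TGANTCA and the KLF-like CACC box CCNCNCCC, on either strand.
HEPACAM2: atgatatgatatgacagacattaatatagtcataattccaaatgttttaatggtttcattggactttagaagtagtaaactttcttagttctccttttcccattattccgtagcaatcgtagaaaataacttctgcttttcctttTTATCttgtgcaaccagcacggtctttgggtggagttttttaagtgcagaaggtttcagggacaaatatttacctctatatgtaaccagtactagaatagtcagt
KLF1: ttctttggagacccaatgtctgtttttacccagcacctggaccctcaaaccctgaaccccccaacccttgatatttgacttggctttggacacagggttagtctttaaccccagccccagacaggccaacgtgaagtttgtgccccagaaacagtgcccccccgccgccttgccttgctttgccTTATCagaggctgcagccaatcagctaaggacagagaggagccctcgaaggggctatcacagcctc
LOC105376956: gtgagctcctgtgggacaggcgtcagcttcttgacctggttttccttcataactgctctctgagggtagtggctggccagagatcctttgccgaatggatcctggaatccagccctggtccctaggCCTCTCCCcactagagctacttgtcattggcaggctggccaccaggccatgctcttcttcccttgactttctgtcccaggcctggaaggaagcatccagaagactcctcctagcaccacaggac
LOC101927281: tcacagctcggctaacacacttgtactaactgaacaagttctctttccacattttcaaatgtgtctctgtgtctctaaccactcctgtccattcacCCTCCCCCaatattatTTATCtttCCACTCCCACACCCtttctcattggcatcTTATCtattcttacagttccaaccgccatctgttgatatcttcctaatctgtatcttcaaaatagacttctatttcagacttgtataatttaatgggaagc
The windows are chr7:93219572-93219821 for HEPACAM2 and chr19:12887202-12887451 for KLF1, both on the minus strand, and chr3:12878049-12878298 for LOC105376956 and chr9:73357666-73357915 for LOC101927281, both on the plus strand. HEPACAM2 and KLF1 each held 1 GATA core and no AP-1 site or CACC box, LOC105376956 held 1 CACC box, and LOC101927281 held 2 GATA cores and 3 CACC boxes. Of the LOC101927281 bases printed, 40 lay in one member and 119 in another. Between these members lay a gap. The GATA core nearer the gene start lay in a member, the other lay in the gap, and no CACC box lay whole in a member. Over the 166 windows, the GATA core was present in 21.7%, against 20.5% of all 34789 promoter windows and 11.8% of the 10938 over regions with H3K27ac peaks in all 6 libraries. The AP-1 site was in 3.01%, 6.55% and 3.99%, and the CACC box in 71.7%, 53.4% and 70.1%, in the same order. The letters CTG followed after 8 further bases by GATAA, a composite that contains the GATA core, were in 4 of the 166 windows (2.41%), among them KLF1 and LOC101927281, and in 0.494% of all windows. The other windows with it belonged to IUR1 and ART4. The member windows were also richer in G and C than all windows, with medians of 65.6% and 58%, and close to the 64.8% of windows over regions with H3K27ac peaks in all 6 libraries.

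H3K27ac counts in regions summed to between 12634261 and 27266241 per library, Jun to between 4766421 and 18883962, CTCF to between 2553677 and 6068421 and Rad21 to between 4398797 and 7285286. The lowest H3K27ac total was a 6 h library. The lowest Jun totals were both 6 h libraries and the highest both 72 h libraries. Counts on the mitochondrial genome made up 24.0% and 27.7% of the Jun total at 0 h and 21.3% and 18.1% at 6 h. By 72 h the Jun share was down to 9.07% and 8.58%. CTCF shares were also lowest at 72 h, with 9.55% and 9.63%, after 17.8% and 22.1% before PMA. The 6 h CTCF libraries held 30.5% and 20.4%. Rad21 started from 34.1% and 24.8%, and its 72 h libraries had 30.6% and 30.1%. H3K27ac shares lay between 0.286% and 1.47%. As a check of the cell type, 8 of 14 erythroid marker genes had an H3K27ac region with peaks in both 0 h libraries over their span, among them KLF1, TAL1, HBB and HBG2, while GATA1 and HBE1 had none. Of 11 genes that mark other blood cells, 6 had one over their span, among them CD3D, CD79A, LYZ, PTPRC and SPI1, and CD3E, MS4A1, CD14, MPO and ELANE had none. The shares of the marker lists were close, so this check did not separate erythroid genes from those of other blood cells.

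Acetylation at the members fell in steps. Their median level, in region counts scaled to the library with TMM factors (CPM, here per region and not per length), was 8.29 and 8.43 in the 0 h libraries, 3.29 and 3.30 in the 6 h libraries and 1.34 and 1.27 in the 72 h libraries. The libraries of one time lay close together and the 3 times did not overlap at the median. Regions with peaks in all 6 libraries, 17164 in number, went from 31.6 and 32.5 through 24.7 and 26.1 to 21.7 and 22.4 CPM. A set of 606 regions with peaks in both 0 h and both 6 h libraries and none at 72 h went from 13.5 and 13.7 through 8.96 and 8.79 to 2.43 and 2.26 CPM. The members were chosen by peak calls in these same libraries, so the decline is a description.

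**Figure D1:**
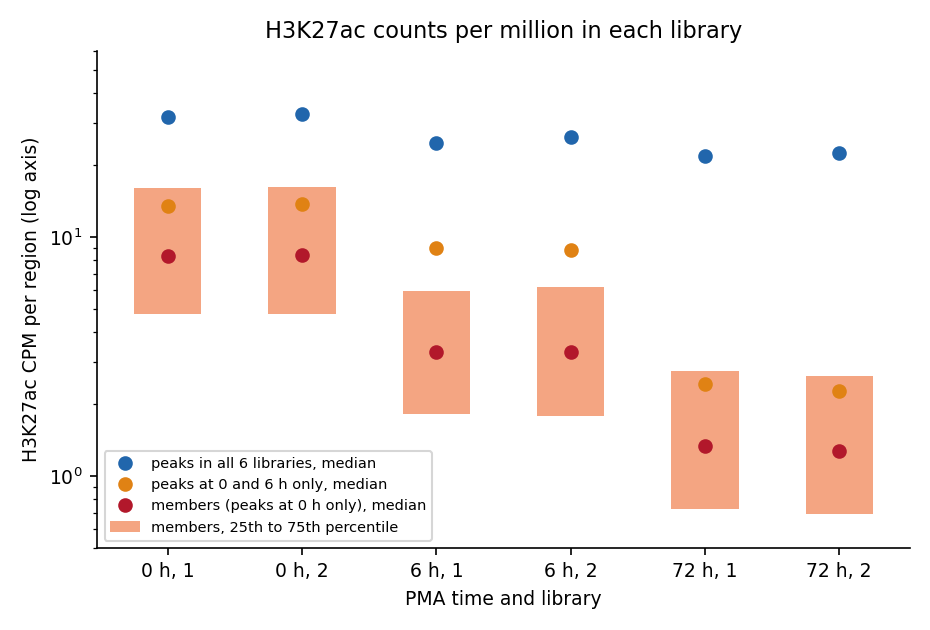
H3K27ac CPM (vertical log axis) in each of the 6 libraries (horizontal axis), with the median over the members and, as boxes, their 25th to 75th percentile, and the medians of 2 other sets of regions. The member medians step down from 8.29 and 8.43 at 0 h to 1.34 and 1.27 at 72 h, while regions with peaks in all 6 libraries stay above 21 CPM.

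The median member kept 0.395 of its 0 h level at 6 h and 0.170 at 72 h, and from 6 to 72 h it kept 0.418. Its mean level fell at both steps in 2725 members (88.6%) and was higher at 72 h than at 6 h in 292 (9.50%). A region without a later peak was not always a region without later signal. At 6 h 1020 members held more than 0.5 of their 0 h level and at 72 h 219 did, including 31 that were above it. At the other end, 2121 members held less than 0.25 of their 0 h level at 72 h. All 3075 members passed the filter on low counts. By edgeR's quasi-likelihood test with Benjamini-Hochberg adjusted p under 0.05, 2625 were lower and 11 higher at 6 h, where 26.3% of all 94865 tested regions were lower and 32.3% higher. At 72 h 2992 were lower and 10 higher, where 38.1% of all regions were lower and 43.4% higher. From 6 to 72 h 2268 were lower and 89 higher, against 30.8% of all regions lower and 33.1% higher. The rule used these contrasts, so nothing is read from the shares.

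Members were weaker and narrower at 0 h than regions with peaks in all 6 libraries. Both sets were defined by peak calls in these same libraries, so the contrast is a description. In the authors' 0 h peak lists, the strongest peak at a member had a median fold enrichment of 3.86 in both libraries and ranked at the 41.4 and 41.5 percentile of its list, against 71.6 and 72.3 for regions with peaks in all 6 libraries. The authors' −log10 q there had a median of 7.55 and 8.005, and lay below 10 at 2203 and 2065 members. When only peaks with −log10 q of at least 10 were counted, 2283 regions met the rule and 602 of them were among the 3075. Peaks overlapped the members by at least 200 bp, so the 1 bp minimum chose none of them. Just outside the rule, 1703 regions with peaks in both 0 h libraries and in 1 of the 4 later ones had medians of 10.5, 5.45 and 2.56 CPM at 0, 6 and 72 h, and 5179 regions with a peak in 1 of the 0 h libraries alone had 2.83, 1.57 and 0.708 CPM. The members themselves, by their mean of 2 libraries, had medians of 8.43, 3.28 and 1.31 CPM. Over all regions on the chromosomes examined the 0 h median was lower, 2.20 CPM.

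The members lay mostly away from gene starts. Their median width was 697 bp, against 1721 bp for regions with peaks in all 6 libraries and 1053 bp for those with peaks at 0 and 6 h. Per kilobase, their 0 h median was 11.4 CPM against 19.1 and 12.9. A promoter window was overlapped by 144 members (4.68%), by 41.6% of the regions with peaks in all 6 libraries and by 12.7% of those with peaks at 0 and 6 h. The median distance to a gene start was 22.04 kb, against 2.36 and 15.9 kb. Over all regions on the chromosomes examined, that distance was 19.3 kb and 11.2% overlapped a promoter window. A gene span was overlapped by 71.0% of members and by 72.6% of all these regions, so these shares were close. The 144 promoter members kept more of their acetylation than the others, with median 72 h over 0 h ratios of 0.296 and 0.166. Among them, HEPACAM2 had 108 and 108 CPM at 0 h, then 21.9 and 26.1 at 6 h and 5.86 and 6.01 at 72 h, and LOC105376956 had 43.3 and 52.2, then 6.72 and 5.61, then 1.12 and 0.473 CPM.

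Members were spread over all 23 chromosomes examined, from 8.37% of the 0 h regions of chromosome 17 to 15.9% of those of chromosome 13. Most stood alone. Joined when within 12.5 kb of each other, the members formed 2721 chains, of which 2420 held 1 member, 255 held 2 and 46 held 3 or more, with at most 4. Within 5 kb of 1253 members (40.7%) lay a region with peaks in both 72 h libraries, and within 5 kb of 692 (22.5%) a region with peaks in all 6 libraries. Chains of 4 included one in PIP4K2A, which encodes a phosphoinositide kinase, at chr10:22668249-22695053, where the summed level was 157 and 160 CPM at 0 h, then 61.2 and 63.4 at 6 h and 26.1 and 21.7 at 72 h. Among those 4 members lay 2 regions with peaks in all 6 libraries. Over LOC101927281, whose start is printed above, 4 members at chr9:73356608-73371173 went from 68.0 and 67.5 through 10.4 and 10.4 to 1.01 and 0.437 CPM. In LDLRAD3, which encodes a receptor of the LDL receptor class A domain family, 4 members at chr11:36097023-36105098 went from 74.6 and 77.8 through 22.3 and 26.8 to 3.87 and 4.15 CPM.

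Of the 6 members with the most 0 h signal, 5 lay within the span of genes that were on no erythroid list and 1 lay far from genes. At chr6:146876831-146878804, within the span of the long noncoding gene STXBP5-AS1, H3K27ac was 196 and 213 CPM at 0 h, then 77.5 and 88.1 at 6 h and 36.4 and 37.3 at 72 h. A second member in that gene, chr6:146896375-146898237, went from 152 and 169 through 67.7 and 80.6 to 25.4 and 23.9 CPM. Both kept a level at 72 h above the 0 h level of most members. In RREB1, which encodes a zinc finger factor acting downstream of Ras, the member at chr6:7143875-7145383 went from 172 and 169 through 78.4 and 96.1 to 36.7 and 37.1 CPM. The member in ZCCHC7 at chr9:37246087-37248885 fell furthest of these 6, from 131 and 133 through 43.7 and 45.7 to 7.46 and 6.34 CPM, a 19.2-fold difference between 0 and 72 h. In CPED1, chr7:121046083-121047152, the values were 132 and 123, then 49.96 and 55.0, then 21.9 and 24.7 CPM. The member at chr4:126733223-126734922, whose nearest gene RBM48P1 is 168286 bp away, had 125 and 111, then 42.0 and 58.7, then 22.7 and 27.3 CPM.

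A larger share of the erythroid genes than of all coding genes had a member nearby. Within 25 kb of their span, 14 of the 17 erythroid transcription factor genes with any 0 h region had a member, as did 10 of 10 globin genes, 14 of 25 genes for red cell membrane proteins and receptors and 9 of 20 for heme synthesis and iron. Of all 14585 protein-coding genes with a 0 h region, 2982 (20.4%) had one. The 10 globin genes shared 3 members between them. Counted over regions, members were 26 of 105 0 h regions near the transcription factor genes (24.8%), 21 of 106 near the membrane genes (19.8%), 3 of 18 near globin genes (16.7%) and 11 of 76 near heme and iron genes (14.5%), against 10.1% near all protein-coding genes. Lower shares of regions were found for megakaryocyte and platelet genes (3 of 52), DNA replication and cell cycle genes (5 of 87), early response genes (2 of 41) and AP-1 subunits and their partners (2 of 51), and genes of other blood cells had 3 of 29 (10.3%). Counted over genes, the megakaryocyte and platelet list (3 of 13, 23.1%) and the list of other blood cells (2 of 9, 22.2%) lay slightly above the 20.4% of all coding genes. These lists were chosen with results of these data known, and the shares are descriptions.

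**Figure D2:**
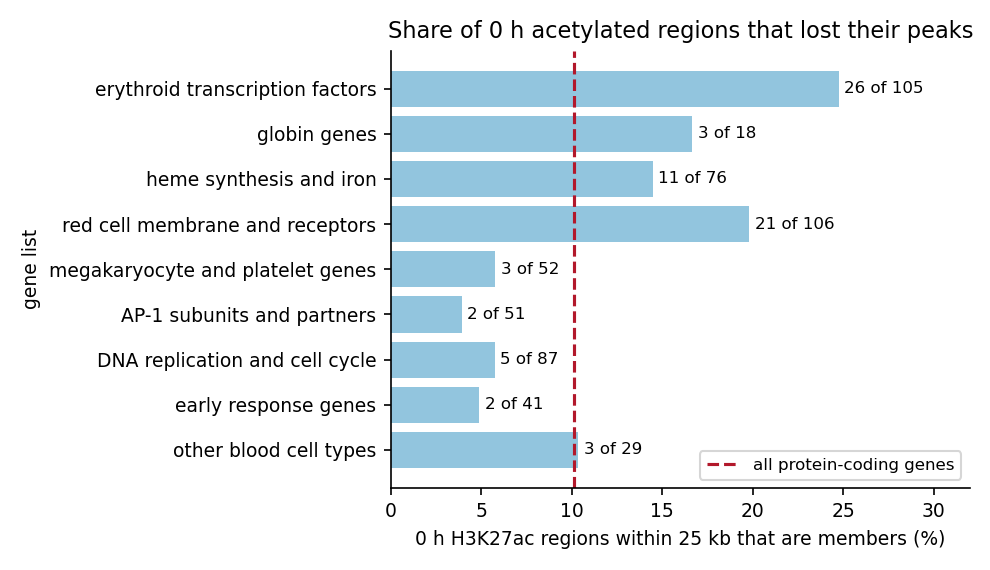
Share of H3K27ac regions with peaks in both 0 h libraries, within 25 kb of the genes of each list, that had no later peak (horizontal axis, percent), with the numbers of regions beside each bar. The dashed line is the 10.1% of all protein-coding genes. The 4 erythroid lists lie to its right at 14.5% to 24.8%.

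Among the transcription factor genes, the strongest member covered the start of KLF1, the erythroid CACC-binding factor whose promoter is printed above. At chr19:12886398-12887606 its H3K27ac was 68.9 and 68.7 CPM at 0 h, then 11.8 and 13.4 at 6 h and 1.92 and 2.44 at 72 h, a 31.6-fold difference. In SOX6, a factor that silences embryonic and fetal globin genes, the member at chr11:16381139-16383417 had 67.3 and 67.7, then 32.5 and 30.7, then 6.77 and 7.76 CPM. Near STAT5A and STAT5B, neighbouring genes whose products carry the erythropoietin signal, more of the mark was left at 72 h. The strongest of the members within 25 kb of STAT5A, chr17:42317167-42317898, lies in STAT3 and had 60.9 and 64.7 CPM at 0 h, then 20.6 and 32.6 at 6 h and 30.1 and 35.1 at 72 h, so the later times overlapped. In STAT5B, chr17:42271941-42272555, the values were 49.3 and 50.5, then 27.1 and 34.9, then 19.5 and 19.9 CPM.

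The other 10 factor genes with a member were GATA1, TCF3, ZFPM1, GFI1B, MYB, KLF13, GATA2, TAL1, KLF3 and CBFA2T3, with 0 h means between 3.05 CPM for CBFA2T3 and 26.4 for GATA1. Over all 14, the fold between 0 and 72 h ran from 1.88 near TAL1 to 31.6 at KLF1. KLF13, a CACC-binding relative of KLF1, went from 8.55 to 0.473 CPM and ZFPM1, the GATA1 cofactor FOG1, from 19.98 to 1.94 CPM. At GFI1B, a repressor needed for both red cells and megakaryocytes, the mean was 15.0 CPM at 0 h, 3.44 at 6 h and 5.70 at 72 h. The member 1166 bp from RNU6-29P and within 25 kb of GATA1 had means of 26.4, 6.78 and 6.03 CPM.

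**Figure D3:**
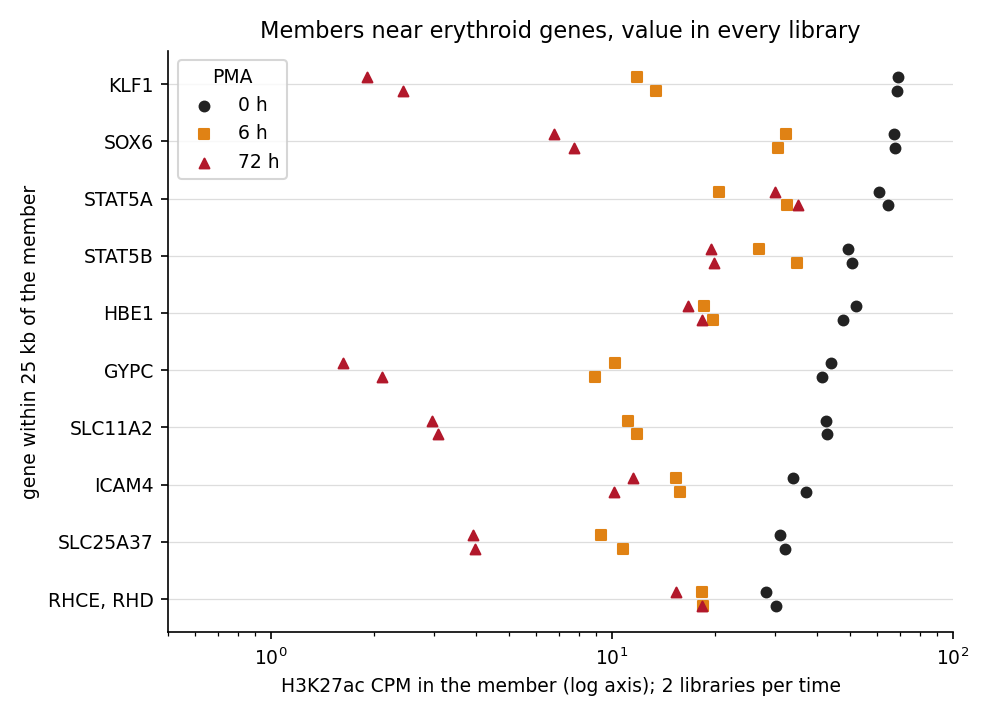
H3K27ac CPM (horizontal log axis) at 10 members near erythroid genes (vertical axis), with both libraries of each time as points. Every 0 h point lies to the right of both later times for each member. The 72 h points of GYPC (1.63 and 2.11 CPM) and KLF1 (1.92 and 2.44 CPM) lie furthest to the left, and those of STAT5A, HBE1 and the RH genes overlap or nearly overlap the 6 h points.

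Near the globin genes, which encode the chains of hemoglobin, 2 of the 3 members kept over 0.25 of their 0 h level at 72 h. The member with the highest 0 h level was 234 bp from OR51AB1P and within 25 kb of the embryonic gene HBE1, at chr11:5290460-5291232. It had 52.0 and 47.5 CPM at 0 h, then 18.7 and 19.7 at 6 h and 16.7 and 18.3 at 72 h, so the 6 and 72 h values nearly overlapped. A member in HBBP1, within 25 kb of HBB, HBD, HBG1 and HBG2, had means of 20.1, 14.3 and 8.53 CPM. In the alpha cluster, a member in HBZP1 near HBA1, HBA2, HBM, HBQ1 and HBZ had 11.3, 2.96 and 1.31 CPM. Reads of near-identical globin copies may have been split or dropped by the alignment, and whether this touched any of these 3 members was not tested. The member near OR51AB1P overlapped no gene span.

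Among genes for heme synthesis and iron handling, SLC11A2, an iron transporter, had a member at chr12:51020369-51020969 with 42.6 and 42.7 CPM at 0 h, then 11.1 and 11.8 at 6 h and 2.97 and 3.10 at 72 h. A member 13974 bp from SLC25A37, the mitochondrial iron importer mitoferrin, had 31.1 and 32.2, then 9.31 and 10.8, then 3.91 and 3.97 CPM. CPOX, ABCB10, ALAS2, FECH, ALAD, STEAP3 and FTL also had members. At ALAS2, whose product makes the first intermediate of heme in red cells, the mean was 10.5 CPM at 0 h, 0.926 at 6 h and 1.09 at 72 h. At the member 16236 bp from CPOX, which encodes a later enzyme of the pathway, the mean was 20.4, 5.07 and 0.654 CPM. Folds between 0 and 72 h at the members of the 9 genes ran from 1.29 near ALAD to 31.2 near CPOX.

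Members near red cell membrane genes lost most of their H3K27ac by 72 h at GYPE and GYPC. In GYPE, a glycophorin gene with near-identical copies whose reads may not be told apart, a member had means of 29.1, 4.51 and 0.564 CPM, a 51.7-fold difference between 0 and 72 h. The member 9247 bp from GYPC, which encodes glycophorin C, at chr2:126645993-126646910, went from 44.1 and 41.4 through 10.2 and 8.91 to 1.63 and 2.11 CPM. Every later library at the GYPC member lay below both 0 h libraries.

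Smaller falls were seen at ICAM4, a red cell adhesion molecule, and near RHCE and RHD, the Rh antigen genes. At ICAM4, chr19:10288250-10289010, the values were 33.9 and 37.2, then 15.4 and 15.8, then 11.5 and 10.1 CPM. The member near the RH genes lies in RSRP1 at chr1:25336585-25337530 and had 28.3 and 30.2, then 18.3 and 18.5, then 15.5 and 18.4 CPM, with the later times overlapping. The fold between 0 and 72 h at the RH genes was 1.73. XK, SPTB, EPB41, DMTN, EPB42, AHSP and SLC4A1 also had members. The one near AHSP, whose product stabilises free alpha globin, was weak, with 7.50 and 8.33 CPM at 0 h against 0.290 and 0.255 at 72 h, a 29.1-fold difference that rests on 8 and 7 counts at 72 h. Near the megakaryocyte genes, the members of the platelet tubulin gene TUBB1 and of MEIS1 went from means of 22.2 and 21.7 CPM at 0 h to means of 4.67 and 6.34 at 72 h. The member in ITGB3, the integrin beta chain of the platelet fibrinogen receptor, had means of 6.64, 4.45 and 6.04 CPM, so it lost its peak call with little change in counts at 72 h.

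The ends of the range of the 1538 members at or above the 0 h median were a near-complete loss and a gain. A member 92759 bp from LINC00561, chr13:76027892-76028810, had 20.9 and 17.8 CPM at 0 h, then 0.560 and 0.886 at 6 h and 0.145 and 0.0728 at 72 h, where the last values rest on 4 and 2 counts. In LOC105377459, chr4:143843429-143844421, the 0 h values were 9.88 and 11.1 CPM and the 72 h counts were 4 and 0. In contrast, a member 24090 bp from LINC02842 had 11.6 and 13.2 CPM at 0 h, then 17.4 and 17.7 at 6 h and 22.5 and 24.3 at 72 h. That region gained signal without a later peak call. In PCNPP3, chr12:65644261-65646146, the values were 46.7 and 46.7, then 27.4 and 32.9, then 54.9 and 61.4 CPM.

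Jun was not used to choose the members, and its signal there was lower after PMA. Jun regions numbered 1408 over 1394 members, and 1681 members had none. Of the 1408, 1389 passed the filter on low counts. By edgeR's quasi-likelihood test, 865 of these were lower at 6 h and 6 higher, where 12.2% of all 132947 tested Jun regions were lower and 13.1% higher. At 72 h 1215 were lower and 1 higher, against 25.7% and 28% of all. The lower share was 87.5% at members and a similar 86.4% at regions with H3K27ac peaks at 0 and 6 h. It was 60.4% at those with H3K27ac peaks in all 6 libraries. The median log2 fold change at 72 h was −1.89, against 0.17 over all Jun regions, −0.85 at regions with H3K27ac peaks in all 6 libraries and −1.61 at those with peaks at 0 and 6 h. From 6 to 72 h 250 were lower and 9 higher, against 13.5% of all lower and 12.7% higher. Both comparisons with 0 h share the 0 h libraries. When libraries were scaled on regions with a Jun peak in every library, the median over all Jun regions at 72 h moved to 0.94 and that at members to −1.12, with 886 lower and 24 higher. The Jun libraries also differed in depth and mitochondrial share, given above, and the part of these in the result was not tested.

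By peak calls, Jun peaks in both libraries of a time were found at 559 members at 0 h (18.2%), 43 at 6 h (1.40%) and 341 at 72 h (11.1%). At regions with H3K27ac peaks in all 6 libraries the shares were 61.1%, 38.5% and 75.6%. Over all H3K27ac regions on the chromosomes examined they were 22.6%, 16.4% and 53.8%. The numbers of Jun peaks called were 31637 and 35072 at 0 h, then 23946 and 35376 at 6 h and 92329 and 99102 at 72 h, so each list differs in length and the shares are descriptions.

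**Figure D4:**
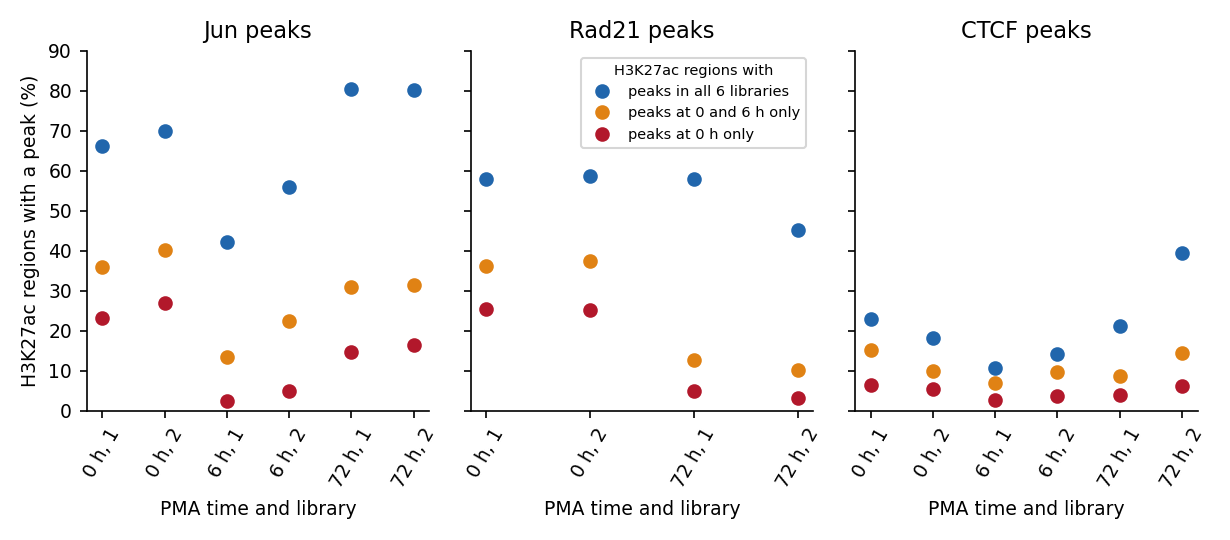
Percent of H3K27ac regions (vertical axis) overlapped by a Jun, Rad21 or CTCF peak in each library (horizontal axis), for members and 2 other sets of regions. Jun peaks were at 23.1% and 26.96% of members in the 0 h libraries and at 2.41% and 4.91% in the 6 h libraries, and Rad21 peaks went from 25.4% and 25.2% at 0 h to 4.88% and 3.25% at 72 h.

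The Jun regions with the lowest log2 fold change at 72 h were near CYTL1, OAT, UBR4 and LINC01720. At chr4:5003486-5003957, 10628 bp from CYTL1, Jun was 11.4 and 17.3 CPM at 0 h, then 0.908 and 1.82 at 6 h and 0.523 and 0.552 at 72 h, which is −4.71 on the log2 scale (SE 0.34, edgeR adjusted p = 5.44e-09). At chr10:124420460-124421043, 1536 bp from OAT, a gene of ornithine breakdown, Jun went from 10.6 and 12.5 through 0 and 1.09 to 0.571 and 0.382 CPM, while H3K27ac at the member there went from 34.6 and 37.1 through 4.62 and 3.79 to 0.290 and 0.401 CPM. In UBR4, a ubiquitin ligase gene, Jun at chr1:19113052-19113794 went from 9.48 and 11.3 through 2.50 and 2.19 to 0.618 and 0.467 CPM. The region near LINC01720, chr1:190597120-190597836, went from 12.1 and 10.3 through 2.72 and 2.19 to 0.713 and 0.509 CPM. At all 4 the 0 h libraries lay above every later one. The sole region called higher was 6397 bp from LOC105376626, chr11:35073589-35074245, with 7.73 and 6.02 CPM at 0 h, then 8.40 and 10.9 at 6 h and 12.8 and 11.7 at 72 h (log2 fold change 0.83, SE 0.23, edgeR adjusted p = 0.00425). That call was lost with DESeq2 (adjusted p = 0.0687) and without the second 0 h library (0.0714), the first 72 h library (0.0657) or the second (0.0573). H3K27ac at the member there also went up, from 3.69 and 5.16 to 16.4 and 17.3 CPM at 72 h.

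Rad21, measured at 0 and 72 h, was lower at many members. Its regions numbered 1442 over 1395 members, and 1369 passed the filter. At 72 h 588 were lower and 8 higher by edgeR's quasi-likelihood test, against 7.91% lower and 15.4% higher among all 83750 tested. The median log2 fold change was −1.14, against −0.05 over all Rad21 regions, −0.01 at regions with H3K27ac peaks in all 6 libraries and −0.84 at those with peaks at 0 and 6 h. Peaks in both Rad21 libraries were at 442 members at 0 h (14.4%) and at 58 at 72 h (1.89%). At regions with H3K27ac peaks in all 6 libraries these shares were 45.9% and 38.4%. Over all H3K27ac regions on the chromosomes examined they were 13.9% and 12.6%, so the 0 h share of members was near that of all regions. The number of calls depended on the libraries: 249 regions were called without the first 0 h library, 251 without the first 72 h library and 288 without the second, against 596 with all 4, and DESeq2 called 256. The median log2 fold change stayed between −1.33 and −0.84 over all alternatives run for Rad21. Whether the high mitochondrial share of the Rad21 libraries, given above, affected these results was not tested.

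**Figure D5:**
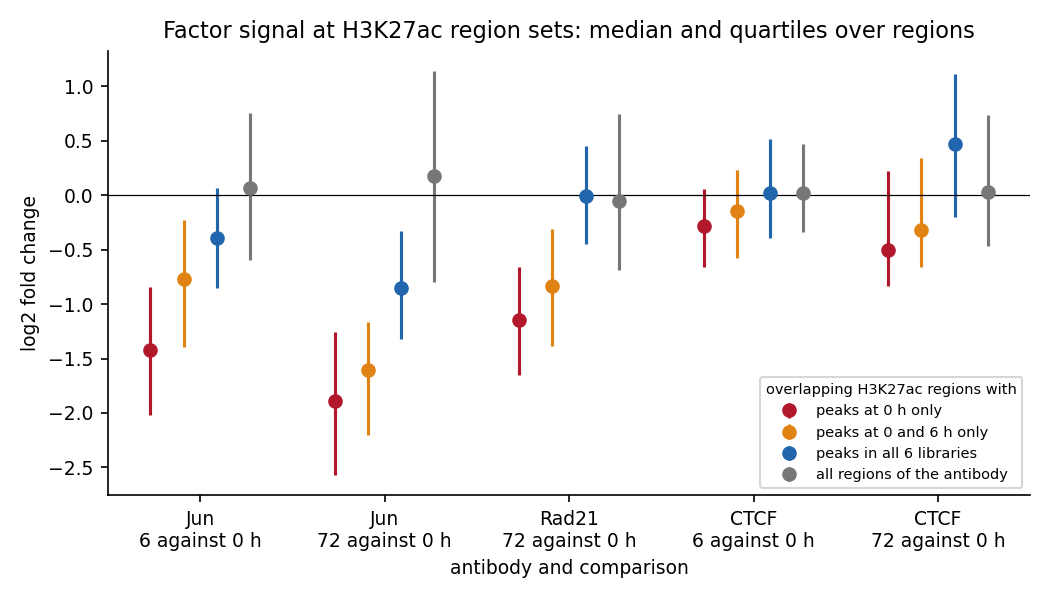
Log2 fold change against 0 h (vertical axis) of Jun, Rad21 and CTCF regions that overlap members, 2 other H3K27ac sets, and of all regions of each antibody, with points at the median and bars from the 25th to the 75th percentile over regions. Jun at 72 h has its median at −1.89 at members and 0.17 over all regions, Rad21 at −1.14 and −0.05, and CTCF at −0.51 and 0.03.

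At the ends of the Rad21 range, the region in MYO16 at chr13:108760294-108760710 had 9.91 and 10.6 CPM at 0 h and 0.149 and 1.32 at 72 h, which are 1 and 7 counts (log2 fold change −3.88, SE 0.53, edgeR adjusted p = 2.45e-05). Its log2 fold change was −2.88 without the first 72 h library and −5.84 without the second. The region 4234 bp from LOC107987171, chr12:8324507-8324946, had 9.28 and 5.70, then 0.744 and 1.13 CPM (−3.01, SE 0.50, adjusted p = 0.000187), and without the first 0 h library the log2 fold change was −2.39. In the opposite direction, Rad21 rose in XK, which encodes a red cell membrane protein of the Kell complex. At chrX:37689138-37689518 it had 14.3 and 15.8 CPM at 0 h and 38.6 and 45.2 at 72 h (1.48, SE 0.24, edgeR adjusted p = 0.000175), while H3K27ac at the member around it, chrX:37688867-37689819, went from 26.8 and 31.0 through 11.8 and 10.7 to 2.03 and 2.80 CPM. Near LINC02842 Rad21 was 4.40 and 4.22 CPM at 0 h and 10.1 and 11.9 at 72 h (1.34, SE 0.33, edgeR adjusted p = 0.00508), a call lost without the second 72 h library (0.0595).

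CTCF was sparse at the members, with peaks in both 0 h CTCF libraries at 4.29% of them, against 6.86% of all H3K27ac regions on the chromosomes examined. Its regions numbered 359 over 353 members and 323 passed the filter. At 6 h 1 was lower and 1 higher by edgeR's quasi-likelihood test, against 0.325% and 2.33% of all 58156 tested, and 0, 1, 1 and 8 were called without the first or second 0 h and the first or second 6 h library. At 72 h 26 were lower and 5 higher, against 2.72% and 4.07%. The median log2 fold change at 72 h was −0.51, against 0.03 over all CTCF regions and 0.47 at regions with H3K27ac peaks in all 6 libraries. At regions with H3K27ac peaks at 0 and 6 h and none at 72 h it was −0.32. The mitochondrial share of the CTCF libraries changed with time, as given above, and its effect on these calls was not tested. Direction and number depended on the processing. With scaling on regions with a CTCF peak in every library 5 were lower and 12 higher, with total counts 17 were lower and 18 higher, and when any one library was left out between 0 and 3 were called: 2 without the first 0 h library, 0 without the second, 2 without the first 72 h library and 3 without the second. Where 0 were called by edgeR, 35 regions at 6 h and 87 at 72 h had an unadjusted p under 0.05, and with all libraries DESeq2 called 1 and 8. The 353 members with a CTCF region kept more acetylation than the 1214 with neither Jun nor Rad21, with median 72 h over 0 h ratios of 0.245 and 0.172. The 1214 were taken without regard to CTCF, so a member may be in both groups. A promoter window was overlapped by 12.7% of the 353 and 4.37% of the 1214, and the part of this in the difference was not tested.

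Among the called CTCF regions of at least median CPM, the lowest log2 fold changes at 72 h were in TAX1BP1 and IQSEC1. In TAX1BP1, chr7:27745119-27745693, CTCF was 18.4 and 18.8 CPM at 0 h, then 14.9 and 16.3 at 6 h and 4.15 and 5.76 at 72 h (log2 fold change −1.87, SE 0.31, edgeR adjusted p = 0.00523). Without the first or second 0 h library the adjusted p was 0.0541 and 0.0774. In IQSEC1, chr3:12984092-12984849, it was 43.8 and 55.6, then 22.98 and 34.2, then 16.4 and 17.4 CPM (−1.55, SE 0.27, edgeR adjusted p = 0.00631). This call was lost without the second 0 h library (0.108) and without the first (0.0608) or second 72 h library (0.0614). The one region of at least median CPM that was called higher, over GAS5 and ZBTB37 at chr1:173867908-173868854, had 10.5 and 6.13, then 9.71 and 8.54, then 21.0 and 18.8 CPM (1.22, SE 0.32, edgeR adjusted p = 0.0323), and the call was lost with DESeq2 (0.128) and without any one of the 4 libraries (0.076 to 0.222). There H3K27ac went from 37.8 and 36.1 to 15.9 and 14.3 CPM. The other 4 regions called higher, named after their values were seen, had less signal and lay in SLC38A2 and TRIB1 and near LINC02842 and SECISBP2. Near LINC02842 CTCF was 3.06 and 0.361 CPM at 0 h, which are 12 and 1 counts, and 12.9 and 8.85 at 72 h (2.50, SE 0.57, edgeR adjusted p = 0.0199). That log2 fold change was 4.78 without the first 0 h library and 1.83 without the second, and the call was lost without the second 0 h (0.149) or the first 72 h library (0.118). The calls in SLC38A2 and TRIB1 and near SECISBP2 were each lost without any one of the 4 libraries.

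Set side by side, 928 members (30.2%) overlapped both a Jun and a Rad21 region, 466 a Jun region alone, 467 a Rad21 region alone and 1214 neither. Their median 72 h over 0 h ratios of H3K27ac were 0.154, 0.190, 0.167 and 0.172. The 429 members with a Jun and a Rad21 region both called lower at 72 h had the lowest median ratio of these groups, 0.110, and the highest median 0 h level, 12.4 CPM, and 1.63% of them overlapped a promoter window. Each of these groups had a median ratio under 0.25. All are made of members, which had no later H3K27ac peak by the rule, so a low ratio was largely set by that choice.

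Jun, Rad21 and CTCF were also read at the named members. In the stronger STXBP5-AS1 member, Jun was 94.1 and 106 CPM at 0 h, then 40.2 and 52.6 at 6 h and 24.4 and 22.8 at 72 h (−2.08 on the log2 scale between 0 and 72 h, SE 0.20, edgeR adjusted p = 4.95e-08), and its 2 Rad21 regions had log2 fold changes of −1.34 and −2.02. In RREB1, no Jun or Rad21 region overlapped the member, and CTCF was 13.0 and 13.7 CPM at 0 h and 10.8 and 11.9 at 72 h, which is −0.22 on the log2 scale (SE 0.29, edgeR adjusted p = 0.635) and did not pass. At the member near HBE1, CTCF was 34.2 and 42.9 CPM at 0 h and 26.3 and 29.9 at 72 h (−0.45, SE 0.27, edgeR adjusted p = 0.275), while Rad21 fell from 33.0 and 27.9 to 12.7 and 16.6 CPM (−1.07, SE 0.25, edgeR adjusted p = 0.0038). The KLF1 member overlapped no region of Jun, CTCF or Rad21. Over the 42 distinct members named for the 50 genes of the 5 lists, 17 overlapped a Jun region, lower at 72 h in 14, 18 overlapped a Rad21 region, lower in 9, and 6 overlapped a CTCF region. For comparison, 87.5% of the tested Jun regions over all members were lower, as were 43% of the Rad21 regions, against 25.7% and 7.91% of all regions tested, so these counts are near those of members in general.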

How the data were processed

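CUT&RUN libraries of K562 cells were analysed from the authors' deposited files: 4 region tables with raw whole-number counts of each library per region, each with the authors' log2 fold changes and adjusted p-values per the file headers, and 22 peak lists, 1 per library, with the authors' fold enrichment (a ratio) and −log10 p-value and −log10 q-value per peak. Per the submitters' processing notes, which give no role or order, Trim Galore 0.4.3, BWA 0.7.17, SAMtools 1.9, deepTools 3.0.1, MACS2 and bedtools 2.26 were used and the builds hg19 and hg38 are named. Regions reach 64329816 on chromosome 20, beyond the end of that chromosome in the older build, so coordinates are read as hg38 and printed 1-based. How regions were built and counted is not given in the sources used here.

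For each antibody, edgeR 4.0.16 in R 4.3.3 was run on all regions of its table (filterByExpr by time, TMM, glmQLFit and glmQLFTest over all time points, Benjamini-Hochberg adjusted p under 0.05). CPM are TMM-scaled, and errors of log2 fold changes are their size over the square root of F. On simulated data for 72 against 0 h, 200 regions changed 4-fold were recovered in 187 cases among 92279 H3K27ac regions, 167 among 120298 Jun, 175 among 53258 CTCF and 146 among 77458 Rad21 regions, with 5.08%, 4.57%, 4.89% and 3.31% false calls. All other simulated regions were left unchanged, whereas 38.1% of the real H3K27ac regions were called lower and 43.4% higher at 72 h. The simulation therefore does not show how many calls are recovered or false under so wide a change. DESeq2 1.42.0 was an alternative.

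Genes are named by the RefSeq span (GRCh38.p14) a region overlaps, else the nearest. The table gives neither exons nor introns. Values were given for the 6 members highest at 0 h, the 12 strongest members near list genes, the 2 highest and lowest 72 h over 0 h ratios, and the called Jun (4 lowest, 2 highest), CTCF and Rad21 (2 and 2) regions of at least median CPM whose libraries separated. Fewer are given where fewer passed, and some results are not reported here. The chains, printed promoters and other genes named were chosen after their values were seen. The members, lists and rules were chosen with earlier results of these data known. Libraries of a group differed by more than counting noise (chi-square per degree of freedom 2.16 to 8.06).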

Additional observations from a re-analysis of the deposited data

How the results depend on the processing

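The direction of all 34 named regions stayed the same under each of their 396 refits, of which 19 lost the call. The named regions were chosen by peak calls, levels or fold changes in these same counts. Their stable direction was therefore largely set by that choice and is no independent support. The number of members, 3075, was between 3419 and 5750 when 1 of the 6 H3K27ac libraries was left out of the rule, with the largest numbers without a 0 h library (5750 and 5579). It was 3075 with peak summits inside the region, 3092 over all contigs and 2283 with −log10 q of at least 10. For Jun, keeping only regions with a mean count of at least 50 left 331 calls at 6 h and 403 at 72 h among 435 tested, since fewer regions were tested. That filter left 120 Rad21 calls of 202 tested, and DESeq2 made 256. For CTCF at 6 h the calls were 1 with DESeq2, with scaling on regions with a peak in every library and with the count minimum, 7 with total counts, and 0 to 8 without one library. For CTCF at 72 h they were 8 with DESeq2, 17 with scaling on shared peaks, 5 with the count minimum, 101 when the 6 h libraries were left out of the fit, and 0 to 3 without one library. The causes of the CTCF and DESeq2 differences were not tested. Without one library, called regions ranged from 2428 to 2513 for H3K27ac at 6 h, 2950 to 2970 at 72 h, 603 to 791 for Jun at 6 h, 1038 to 1119 at 72 h and 249 to 563 for Rad21. Where that left 1 library at a time, it was assumed to vary like the other groups. At 72 h, scaling on shared peaks moved the median over all H3K27ac regions from 0.18 to 0.82 and that of the members from −2.55 to −1.92.

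Libraries share only a replicate number, and same-numbered deviations correlated between −0.008 and 0.124. With a replicate block, the calls were 2614 and 2998 for H3K27ac at 6 and 72 h, 847 and 1197 for Jun, 5 and 64 for CTCF (against 2 and 31) and 633 for Rad21. Depth limits all 3 factors, with median counts per region of 13 to 19 for Jun at 0 and 6 h, 14 to 46 for CTCF and 15 to 21 for Rad21, against 39 to 94 for H3K27ac.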

Other observations

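The authors' deposited H3K27ac table carries a label and a log2 fold change per region. In the authors' deposited table, the log2 fold change at 72 h was below 0 for 3042 of the 3075 members, with a median of −2.40. In the same deposited table, 1268 members (41.2%) carry the label upLate, 166 upEarly, 1082 static, 469 downEarly and 90 downLate. The members labelled upLate had a median log2 fold change at 72 h of −3.03 in the authors' deposited table and those labelled downLate −2.72. Over all 95436 regions of the authors' deposited table, the medians were 2.88 for upLate, 2.84 for upEarly, 2.82 for downEarly and 2.85 for downLate, so the labels did not separate the directions. The adjusted p-values of both later times in the authors' deposited table are identical in all 95436 regions. The labels were not used in any comparison here.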
